A study of Mus musculus with 16 samples.

Results

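The 10 genes described here encode clotting factors and natural anticoagulants that the liver releases into the blood: F12, F11, F9, F7, F10, F5, F2, Serpinc1, Proc and Pros1. They were chosen by name, all 10 were found among the 35502 genes of the count table, and all 10 were among the 13379 genes expressed highly enough to be tested. Liver RNA was sequenced from individual mice in 4 groups of 4, with 1 library per mouse. Mature LERKO mice (Mat.LERKO) and immature LERKO mice (Imm.LERKO) lack oestrogen receptor alpha in the liver and carry Cre, whereas the mature controls (Mat.Con) and immature controls (Imm.Con) are flox mice without Cre. The study compares loss of the receptor before and after sexual maturity. The sources used here do not give the strain, sex or age of the mice, the Cre driver or the deleted exon, nor whether maturity refers to the age at knockout or at tissue collection. The controls have no Cre, so an effect of Cre itself and an effect of losing the receptor cannot be told apart in these groups.

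Blood clotting is a cascade in which each factor is a protease precursor or a cofactor that activates the next. Factor XII starts the contact (intrinsic) route and passes activation to factor XI and factor IX, while factor VII starts the extrinsic route when it meets tissue factor at a wound. Both routes meet at factor X, which with its cofactor factor V turns prothrombin into thrombin, and thrombin makes fibrin. Antithrombin (Serpinc1) blocks thrombin and factor X, and protein C (Proc) with its cofactor protein S (Pros1) destroys activated factor V and factor VIII. Prothrombin, factors VII, IX and X, protein C and protein S need a vitamin K-dependent modification to work. Hepatocytes make most of the circulating pool of these proteins, and oestrogens are known to alter the blood levels of several of them, with the factor XII gene the usual textbook example of a clotting gene that responds to oestrogen.

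The promoters of 4 of the genes are shown. F12 was taken as the known oestrogen-responsive gene, and the others for their place in these data. F11 was the member with the widest spread between mice and Serpinc1 the steadiest member. F7 was the only member with an unadjusted p below 0.05 in any comparison of all 16 libraries by edgeR with TMM scaling. Each window runs 5′ to 3′ on the gene's strand from 250 bases before to 50 bases after the RefSeq start on GRCm38.p6. Capitals mark GGTCA or its reverse complement TGACC, the core of the site that oestrogen and other nuclear receptors bind. The windows are chr13:55426755-55427054 on the minus strand for F12, chr8:45261982-45262281 on the minus strand for F11, chr8:13025784-13026083 on the plus strand for F7 and chr1:160978333-160978632 on the plus strand for Serpinc1.
F12: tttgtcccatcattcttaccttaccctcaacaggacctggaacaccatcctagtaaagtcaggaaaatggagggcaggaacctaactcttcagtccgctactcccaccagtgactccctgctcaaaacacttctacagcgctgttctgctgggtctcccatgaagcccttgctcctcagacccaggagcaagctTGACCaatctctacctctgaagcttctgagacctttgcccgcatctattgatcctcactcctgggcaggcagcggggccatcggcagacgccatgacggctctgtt
F11: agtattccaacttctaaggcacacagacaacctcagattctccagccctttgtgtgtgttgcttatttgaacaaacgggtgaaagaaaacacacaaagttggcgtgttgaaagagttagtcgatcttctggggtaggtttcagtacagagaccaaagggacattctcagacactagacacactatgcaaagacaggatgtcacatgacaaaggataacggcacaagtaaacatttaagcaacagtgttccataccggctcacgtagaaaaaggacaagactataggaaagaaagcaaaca
F7: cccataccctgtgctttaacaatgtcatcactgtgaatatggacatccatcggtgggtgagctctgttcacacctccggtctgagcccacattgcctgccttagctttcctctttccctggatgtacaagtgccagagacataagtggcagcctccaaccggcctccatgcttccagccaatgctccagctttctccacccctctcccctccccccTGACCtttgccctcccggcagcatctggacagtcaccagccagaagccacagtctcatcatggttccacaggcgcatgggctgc
Serpinc1: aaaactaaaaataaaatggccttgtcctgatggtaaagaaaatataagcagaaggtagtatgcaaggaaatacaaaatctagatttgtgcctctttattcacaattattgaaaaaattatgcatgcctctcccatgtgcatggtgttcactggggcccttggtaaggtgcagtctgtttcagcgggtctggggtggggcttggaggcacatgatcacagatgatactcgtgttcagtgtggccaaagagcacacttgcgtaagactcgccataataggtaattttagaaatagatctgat

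Of the 10 genes, 9 had a window in the RefSeq table. The core GGTCA, searched on both strands, was present in 6 of these 9 windows (F12, F9, F7, F10, F5 and F2), and in 40.5% of all 32851 windows of the table. It began 56 bases before the start in F12 and 34 bases before it in F7, and it was not in the F11 or Serpinc1 window. The full palindromic element, GGTCA followed after any 3 bases by TGACC, was in none of the 9 windows and in 0.07% of all windows. The sequence CAAAGTCCA, a site of the hepatocyte factor HNF4, was in none of the 9 and in 0.475% of all. TTCNNNGAA, the spaced palindrome read by STAT factors that carry cytokine signals, was in the F9 and Pros1 windows and in 8.3% of all. These matches describe the letters in the windows and nothing about binding.

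Esr1, which encodes the receptor, was read first in every library as a check of the labels. It had 15.8, 19.1, 16.4 and 13.9 CPM (gene counts brought to a fixed library size, after TMM scaling) in Mat.LERKO livers, against 75.0, 66.7, 110 and 76.9 CPM in Mat.Con livers. Imm.LERKO livers had 10.7, 12.6, 15.95 and 12.7 CPM, against 65.8, 84.5, 89.0 and 55.3 CPM in Imm.Con livers. No LERKO library overlapped the controls, and the log2 fold change was -2.33 in mature mice (SE 0.19, adjusted p = 1.57e-05) and -2.50 in immature mice (SE 0.19, adjusted p = 6.55e-06) by edgeR's quasi-likelihood test with Benjamini-Hochberg adjustment. Total counts ran from 18123974 to 23213905 per library.

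Some libraries stood apart, and values without Mat.LERKO library 4 or Imm.LERKO library 2 are given beside the results that these libraries move most. In library 4 of the Mat.LERKO group, 10 acute phase genes, the proteins that the liver makes in inflammation, summed to 79102 CPM, against 5122 to 5965 CPM in Mat.Con livers, with 5599 to 7092 CPM in the other 3 Mat.LERKO libraries. The same library had the lowest sums of endothelial markers (105 CPM) and stellate cell markers (68.8 CPM) of all 16 libraries, and the highest sum of Kupffer cell markers (301 CPM, against 93.5 to 266 CPM in the other 15). Of the 6 Kupffer cell markers, Clec4f (112 CPM) and Cd5l (128 CPM) were highest there, while Vsig4, Timd4, Marco and Adgre1 were each higher in another library. Library 2 of the Imm.LERKO group had 0.480 CPM of Xist, the RNA that silences an X chromosome in cells with a pair of them, while the other 15 libraries had 469 to 735 CPM; 4 genes of the Y chromosome had 0 reads in all 16 libraries. Skeletal muscle markers summed to 593 and 216 CPM in Mat.Con libraries 1 and 2, 101 CPM in Imm.LERKO library 4 and 37.3 CPM in Mat.Con library 4, and to no more than 1.83 CPM elsewhere. Hepatocyte markers, led by albumin, summed to 83916 CPM in Mat.LERKO library 4, the lowest of all 16 libraries, and to 103759 to 149671 CPM in the other 15.

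The 10 genes together made up 0.751 to 0.950% of the scaled counts of a liver. Per kilobase of the principal transcript, prothrombin was the most abundant, with a mean of 1310 CPM per kilobase over the 16 libraries, followed by Serpinc1 at 472, Proc at 414, F12 at 287, F10 at 246, F5 at 125, F9 at 74.6, F7 at 72.8, F11 at 36.7 and Pros1 at 18.2 CPM per kilobase. The ranges over the 16 livers of neighbours in this order overlapped in 6 of 9 pairs; only the steps between F2 and Serpinc1, between Proc and F12 and between F10 and F5 had no overlap. When each gene was divided by the length of all its annotated exons, F12 took the second place, ahead of Serpinc1 and Proc. F10 and F7 lie in tandem on chromosome 8, with 1498 bases between them.

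**Figure D1:**
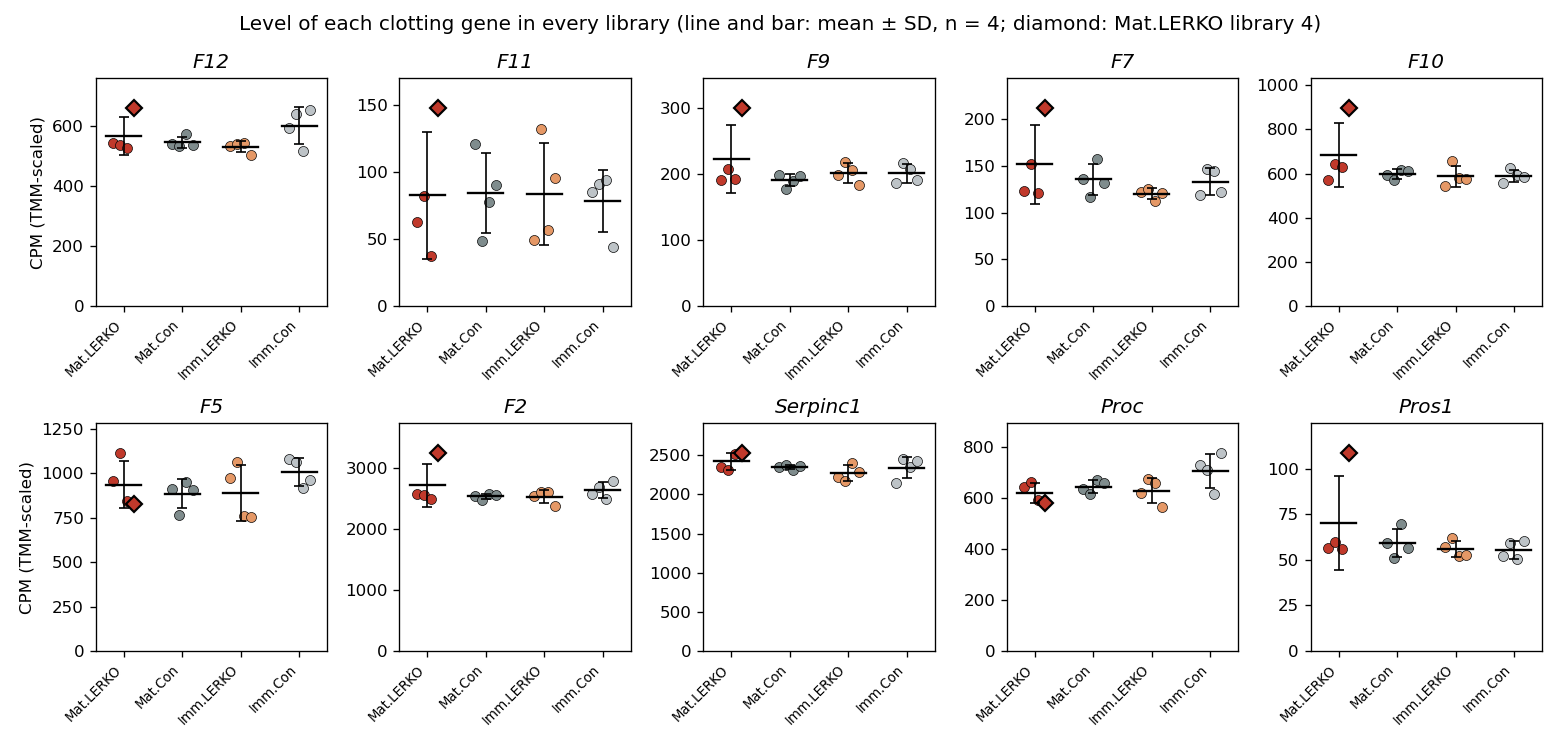
Level of each gene in every library, in TMM-scaled CPM on axes that start at 0, with the 4 groups along the horizontal axis (points are single mice, line and bar are mean ± SD, n = 4, and the diamond is Mat.LERKO library 4). The groups overlap in every panel, F11 scatters most within groups, from 37.4 to 148 CPM over the 16 livers, and the diamond is the highest point in 8 of the 10 panels.

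No clotting gene passed the threshold in any comparison of the 4 groups. In the test of any difference among the 4 groups, 0 of 10 members had an adjusted p below 0.05, against 1 gene (0.00747%) of all 13379 tested, which was Esr1 itself. The smallest p among the members was 0.226 for Pros1 (adjusted p = 0.858, edgeR). DESeq2 and limma-voom also called 0 of 10 members, with 69 (0.516%) and 1 (0.00747%) of all genes called, and by all 3 tools 0 members had an unadjusted p below 0.05 in this test, which 6.6% of all genes had by edgeR. With 1 library per mouse, these tests set the differences between groups against the spread between mice.

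In the contact route, factor XII is the protease that triggers the intrinsic cascade on negatively charged surfaces. F12 had 544, 537, 527 and 660 CPM in Mat.LERKO livers, against 541, 535, 574 and 538 CPM in Mat.Con livers. It had 534, 541, 545 and 505 CPM in Imm.LERKO livers, against 594, 640, 519 and 653 CPM in Imm.Con livers. Within the mature mice the groups interleaved, and within the immature mice 3 of 4 controls lay above all 4 LERKO livers while the fourth lay among them. The log2 fold change of LERKO over Con was 0.05 (SE 0.10, 95% interval -0.16 to 0.27, adjusted p = 0.939) in mature mice and -0.18 (SE 0.10, 95% interval -0.40 to 0.04, adjusted p = 1.00) in immature mice by edgeR. The mature value was 0.0013 without Mat.LERKO library 4. Averaged over both stages it was -0.06 (SE 0.07, adjusted p = 0.999, edgeR), a fold of 0.957 with a 95% interval of 0.860 to 1.06. The 2 stage effects differed by 0.23 (SE 0.14, unadjusted p = 0.128, adjusted p = 0.798, edgeR), so a difference between the stages was not called.

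Factor XI, the next protease of that route, gave the widest scatter. F11 had 62.9, 81.9, 37.4 and 148 CPM in Mat.LERKO livers, against 121, 48.5, 77.6 and 90.1 CPM in Mat.Con livers. It had 49.3, 132, 56.7 and 95.7 CPM in Imm.LERKO livers, against 84.7, 90.8, 94.0 and 44.3 CPM in Imm.Con livers. The lowest and the highest of the 16 livers both belonged to the Mat.LERKO group, and every group spanned more than 2-fold. The fitted difference was -0.03 on the log2 scale in mature mice, with a 95% interval from -0.87 to 0.81, and 0.09 in immature mice, with an interval from -0.76 to 0.93, so changes of nearly 2-fold in either direction were within the intervals. Without Mat.LERKO library 4 the mature value was -0.44, and without Imm.LERKO library 2 the immature value was -0.22; neither passed the threshold.

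Factor IX, lost in haemophilia B, was steadier. F9 had 192, 208, 193 and 300 CPM in Mat.LERKO livers, against 198, 178, 190 and 197 CPM in Mat.Con livers. It ran from 183 to 218 CPM in Imm.LERKO livers, against 187 to 217 CPM in Imm.Con livers. Outside Mat.LERKO library 4, all 15 livers lay between 178 and 218 CPM. The mature log2 fold change was 0.22 (SE 0.13, unadjusted p = 0.0998, adjusted p = 0.723, edgeR), and without that library it was 0.08. Averaged over the stages it was 0.11 (SE 0.09, unadjusted p = 0.228, adjusted p = 0.999, edgeR), and 0.05 without that library. F9 is on the X chromosome, and Imm.LERKO library 2, the library almost without Xist, held 218 CPM of F9, the highest of its group. That library was also the highest of its group for F11, F7, F10, F5, Proc and Pros1, which are not on the X chromosome. Imm.Con library 2 held 217 CPM of F9. The part of the near absence of Xist in these levels was not tested.

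Factor VII starts the extrinsic route. F7 had 123, 152, 121 and 212 CPM in Mat.LERKO livers, against 136, 117, 158 and 132 CPM in Mat.Con livers. It had 123, 126, 112 and 121 CPM in Imm.LERKO livers, against 119, 147, 145 and 122 CPM in Imm.Con livers. Mat.LERKO livers 1 and 3 lay within the range of Imm.LERKO livers and livers 2 and 4 above it, and Mat.LERKO over Imm.LERKO gave 0.34 on the log2 scale (SE 0.15, unadjusted p = 0.0451, adjusted p = 0.955, edgeR). In this fit of all 16 libraries, F7 was the only one of the 10 members with an unadjusted p below 0.05 in any of the 7 comparisons. In this comparison 4.93% of all tested genes had one. Without Mat.LERKO library 4 the value was 0.14.

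The common route comprises factor X, factor V and prothrombin. F10 had 570, 643, 628 and 896 CPM in Mat.LERKO livers, against 593, 569, 617 and 612 CPM in Mat.Con livers, and ran from 542 to 655 CPM in Imm.LERKO livers, against 558 to 623 CPM in Imm.Con livers. Only Mat.LERKO library 4 left the band of 542 to 655 CPM that held the other 15 livers. The mature log2 fold change of F10 was 0.19 (SE 0.13, unadjusted p = 0.141, adjusted p = 0.741, edgeR), and 0.07 without that library. Averaged over the stages it was 0.09 (SE 0.09, unadjusted p = 0.305, adjusted p = 0.999, edgeR), and 0.04 without it.

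F5, the cofactor of factor X, had 959, 1114, 847 and 828 CPM in Mat.LERKO livers, against 914, 766, 951 and 906 CPM in Mat.Con livers. It had 976, 1066, 763 and 753 CPM in Imm.LERKO livers, against 1083, 1062, 919 and 963 CPM in Imm.Con livers. Imm.LERKO livers formed a higher pair within the range of the immature controls and a lower pair below all 4 of them. The immature log2 fold change was -0.18 (SE 0.14, unadjusted p = 0.214, adjusted p = 1.00, edgeR), and -0.28 without Imm.LERKO library 2. Gm16548, an antisense gene that shares exon bases with F5, had 4.51 to 10.4 CPM.

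F2, whose product prothrombin is the precursor of thrombin, had 2580, 2564, 2488 and 3243 CPM in Mat.LERKO livers, against 2538, 2481, 2567 and 2549 CPM in Mat.Con livers. It ran from 2370 to 2611 CPM in Imm.LERKO livers, against 2484 to 2785 CPM in Imm.Con livers. Apart from Mat.LERKO library 4, the mature livers of both genotypes lay between 2481 and 2580 CPM. The log2 fold change was 0.10 in mature and -0.06 in immature mice, with 95% intervals from -0.12 to 0.33 and from -0.28 to 0.17. The mature value was 0.04 without that library.

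Among the anticoagulants, antithrombin was the steadiest. Serpinc1 had 2351, 2311, 2509 and 2527 CPM in Mat.LERKO livers, against 2346, 2379, 2310 and 2357 CPM in Mat.Con livers. It had 2224, 2177, 2400 and 2292 CPM in Imm.LERKO livers, against 2147, 2446, 2347 and 2430 CPM in Imm.Con livers. The highest of the 16 livers exceeded the lowest 1.18-fold. Averaged over the stages, LERKO over Con was 1.00-fold with a 95% interval of 0.909 to 1.10. Zbtb37, which shares exon bases with Serpinc1 on the other strand, had 3.65 to 5.94 CPM.

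Proc, whose product cuts activated factor V, had 644, 666, 594 and 582 CPM in Mat.LERKO livers, against 635, 615, 673 and 659 CPM in Mat.Con livers. It had 621, 676, 659 and 567 CPM in Imm.LERKO livers, against 729, 710, 617 and 778 CPM in Imm.Con livers. As for F12, 3 of 4 immature controls lay above all 4 Imm.LERKO livers and the fourth lay below 3 of them. The log2 fold change was -0.17 (SE 0.10, unadjusted p = 0.112, adjusted p = 1.00, edgeR) in immature mice and -0.05 in mature mice, where it was 0.0047 without Mat.LERKO library 4. Averaged over the stages it was -0.11 (SE 0.07, unadjusted p = 0.134, adjusted p = 0.999, edgeR), the smallest p of the 10 members in that comparison, and -0.08 without that library.

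Pros1 encodes protein S, the cofactor of protein C, and had 56.7, 59.8, 55.8 and 108 CPM in Mat.LERKO livers, against 59.5, 51.1, 69.7 and 56.5 CPM in Mat.Con livers. It ran from 52.0 to 61.9 CPM in Imm.LERKO livers, against 50.6 to 60.4 CPM in Imm.Con livers. Mat.LERKO library 4 stood alone above a band of 50.6 to 69.7 CPM. The mature log2 fold change was 0.25 (SE 0.18, unadjusted p = 0.186, adjusted p = 0.771, edgeR), and -0.01 without that library. Mat.LERKO over Imm.LERKO gave 0.33 (SE 0.18, unadjusted p = 0.0829, adjusted p = 0.955, edgeR), and 0.04 without it.

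**Figure D2:**
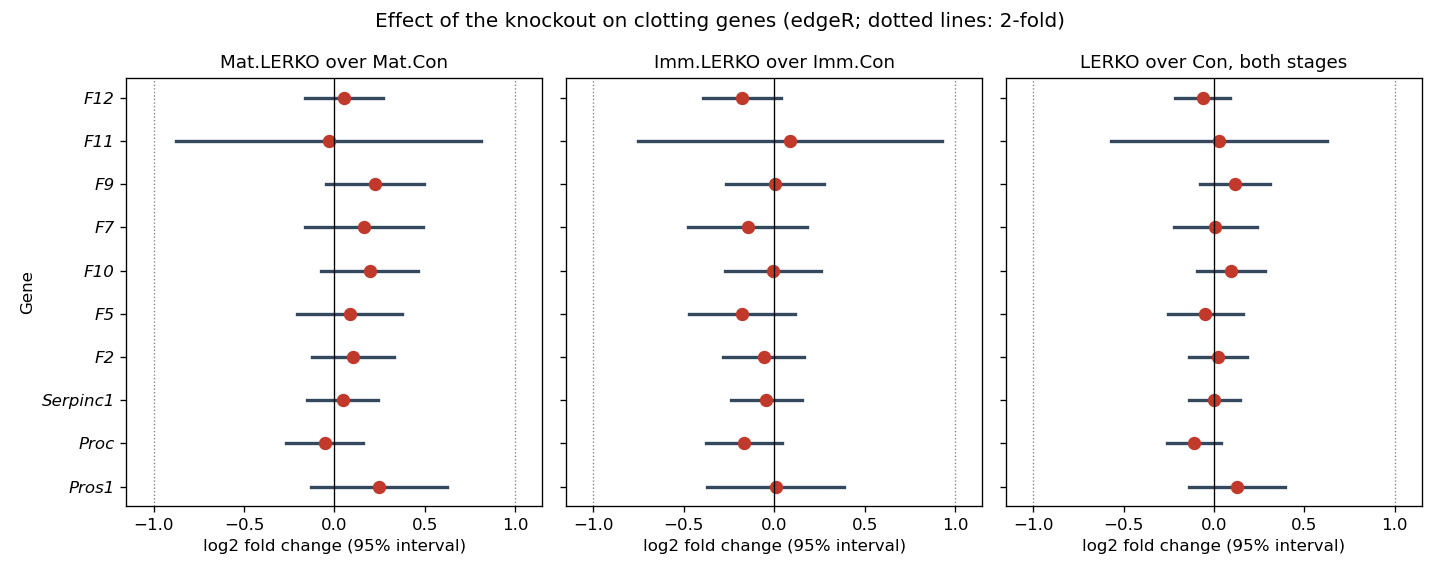
Log2 fold change of LERKO over Con with its 95% interval for each gene, in mature mice, in immature mice and averaged over both stages (edgeR; the dotted lines mark 2-fold in either direction). Every interval crosses 0 and lies within the 2-fold lines, and F11 has the widest, from -0.87 to 0.81 in mature mice.

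Set side by side, no knockout effect on a member was called, and every 95% interval crossed 0. In mature mice, 0 of 10 members passed (0.00747% of all genes did), with log2 fold changes of LERKO over Con from -0.05 (Proc) to 0.25 (Pros1). Of the members 8 of 10 were positive, against 48.2% of all tested genes, and the median was 0.09, against -0.01 over all tested genes. Without Mat.LERKO library 4 the median was 0.02 and 7 of 10 were positive. In immature mice, 0 of 10 passed (0.00747% of all genes did), with values from -0.18 (F12) to 0.09 (F11). Of the members 3 of 10 were positive, against 53.2% of all genes, and the median was -0.05, against 0.01 over all genes. Without Imm.LERKO library 2 the median was -0.12 and 0 of 10 were positive. The 95% interval stayed within 2-fold for 10 of 10 members in both stages, as it did for 81.2% of all tested genes in mature and 83.4% in immature mice. It stayed within 1.5-fold for 8 of 10 in mature and 9 of 10 in immature mice, against 58.5% and 61.6% of all genes. These shares are not matched for level: all 10 members were among the 2530 tested genes with a mean of at least 50 CPM. Shares at that level were not computed. In no member did all 4 LERKO livers lie beyond all 4 controls, which 3.9% of all genes did in mature and 1.63% in immature mice. Averaged over the stages, 0 of 10 passed (0.00747% of all genes did), with values from -0.11 (Proc) to 0.13 (Pros1) and intervals within 2-fold for 10 of 10, against 93.8% of all genes. The averaged value of Pros1 was 0.0032 without Mat.LERKO library 4. By DESeq2, which called 27 genes in mature mice, 13 in immature mice and 3 on average, and by limma-voom, which called 1 in each, 0 members passed either, and by all 3 tools 0 members had an unadjusted p below 0.05 in these 3 comparisons; by edgeR, 7.3% of all genes had one in mature mice, 2.76% in immature mice and 3.69% on average over the stages.

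The stage comparisons likewise called no clotting gene. Mat.Con over Imm.Con gave 5 positive and 5 negative values, with 0 of 10 members past the threshold (0.0% of all genes). DESeq2 called 74 genes here (0.553%) and limma-voom 0, and neither called a member. By edgeR, DESeq2 and limma-voom 0 members had an unadjusted p below 0.05, which 9.84% of all genes had by edgeR. No member had groups without overlap, which 8.86% of all genes had. The smallest p-values were those of F5 at -0.19 (SE 0.14, adjusted p = 0.724, edgeR), F12 at -0.14 (SE 0.10, adjusted p = 0.729, edgeR) and Proc at -0.13 (SE 0.10, adjusted p = 0.729, edgeR). Mat.LERKO over Imm.LERKO gave 8 positive values of 10, against 50.4% of all genes, with 0 past the threshold (0.0% of all genes). The positive values were led by F7, by Pros1 and by F10 at 0.22 (SE 0.13, adjusted p = 0.955, edgeR). F10 was 0.07 without Mat.LERKO library 4, and the median of the members was 0.03 without it and 0.10 with it. An unadjusted p below 0.05 was found there for 1 member (F7) by edgeR and 4.93% of all genes, for 1 member by DESeq2 and 5.05% of all genes, and for 0 members by limma-voom and 4.23% of all genes. The groups overlapped for all 10, whereas 1.52% of all genes had groups without overlap. Averaged over the genotypes, mature over immature passed in 0 of 10 (0.0% of all genes), with F7 at 0.18 (SE 0.11, adjusted p = 0.703, edgeR), Pros1 at 0.21 (SE 0.13, adjusted p = 0.701, edgeR) and F10 at 0.12 (SE 0.09, adjusted p = 0.756, edgeR). These were 0.08, 0.06 and 0.04 without Mat.LERKO library 4, and the median of the members was then -0.03 with 4 of 10 positive, against 0.04 with 7 of 10 positive in all 16 libraries. Of all tested genes, 55.3% were positive in all 16 libraries. An unadjusted p below 0.05 was found for 0 members by all 3 tools and for 7.92% of all genes by edgeR.

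Whether the knockout acted differently in the 2 stages was tested as an interaction. The difference of effects, mature minus immature, was positive in 9 of 10 members, against 48.7% of all tested genes. The median of the members was 0.21 on the log2 scale against -0.01 over all tested genes, and 0 of 10 passed (0.0% of all genes). F7 at 0.31 (SE 0.22, adjusted p = 0.811, edgeR) and F5 at 0.26 (SE 0.20, adjusted p = 0.830, edgeR) had the smallest p-values beside F12, given above. With Mat.LERKO library 4 left out, F7 was 0.12, F5 was 0.34 and F12 was 0.17. The median was 0.25 with 10 of 10 positive without Imm.LERKO library 2, and 0.08 with 8 of 10 positive without Mat.LERKO library 4. Without Mat.LERKO library 4 and the 3 with most muscle transcripts it was 0.02 with 6 of 10 positive. By edgeR, DESeq2 and limma-voom, 0 members had an unadjusted p below 0.05, which 6.35% of all genes had by edgeR.

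The 10 genes differed widely in how much they varied between mice of the same group. Among the 2530 tested genes with a mean of at least 50 CPM, the median within-group SD was 0.19 on the log2 scale. Serpinc1 had an SD of 0.06, and only 0.553% of those genes had a smaller one. F2 (0.10, with 9.01% smaller), Proc (0.11, with 10.5% smaller) and F12 (0.11, with 13.2% smaller) were also steady. F10, F9 and F5 lay between 0.16 and 0.18, F7 had 0.22 and Pros1 0.26. F11 had 0.65, and 96.3% of the genes had a smaller SD. Without Mat.LERKO library 4 the highest liver exceeded the lowest 1.17-fold for Serpinc1, 1.18-fold for F2, 1.21-fold for F10, 1.23-fold for F9, 1.38-fold for Pros1 and 3.52-fold for F11, so the wide range of F11 did not rest on that library while those of F9, F10 and Pros1 shrank without it.

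**Figure D3:**
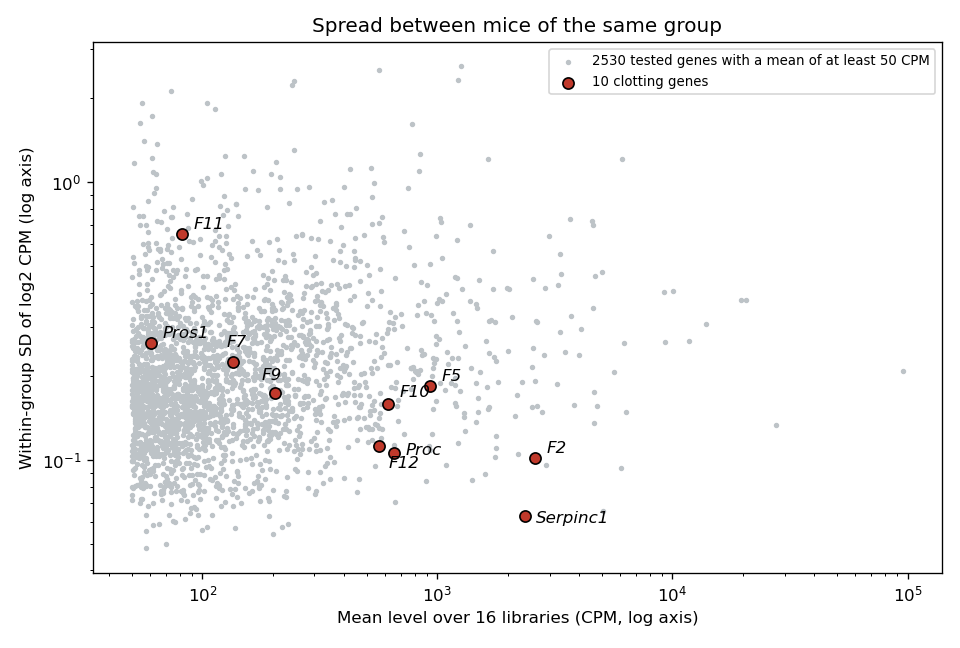
Within-group SD of log2 CPM against the mean level for the 2530 tested genes with at least 50 CPM (grey) and the 10 clotting genes (red), both axes logarithmic. Serpinc1 lies at the bottom of the cloud at an SD of 0.06, and F11 lies in its upper part at 0.65.

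The highest values of most of the genes came from the same liver. Mat.LERKO library 4 was the highest of the 16 libraries for 8 of 10 members, as it was for 17.4% of all tested genes. Relative to the median of the other 3 Mat.LERKO livers, it held 2.35 times as much F11, 1.91 times as much Pros1, 1.72 times as much F7, 1.56 times as much F9, 1.43 times as much F10, 1.26 times as much F2, 1.23 times as much F12 and 1.07 times as much Serpinc1. Proc at 0.904 times and F5 at 0.863 times were below all 3 of them. Of the 6 vitamin K-dependent members, 5 were highest there and Proc was not. Beside its acute phase sum of 79102 CPM, the same liver had the fibrinogen chains Fga at 3.53 times and Fgb at 3.59 times the median of the other 3, while Hnf4a, a transcription factor of hepatocyte genes, was at 0.753 times and Alb at 0.670 times. The sums of endothelial and stellate markers were low in the same liver, and that of Kupffer cell markers, led by Cd5l and Clec4f, was high. In bulk RNA, fewer cells of a type and less RNA per cell cannot be told apart. The part of these markers in the members' levels was not tested.

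**Figure D4:**
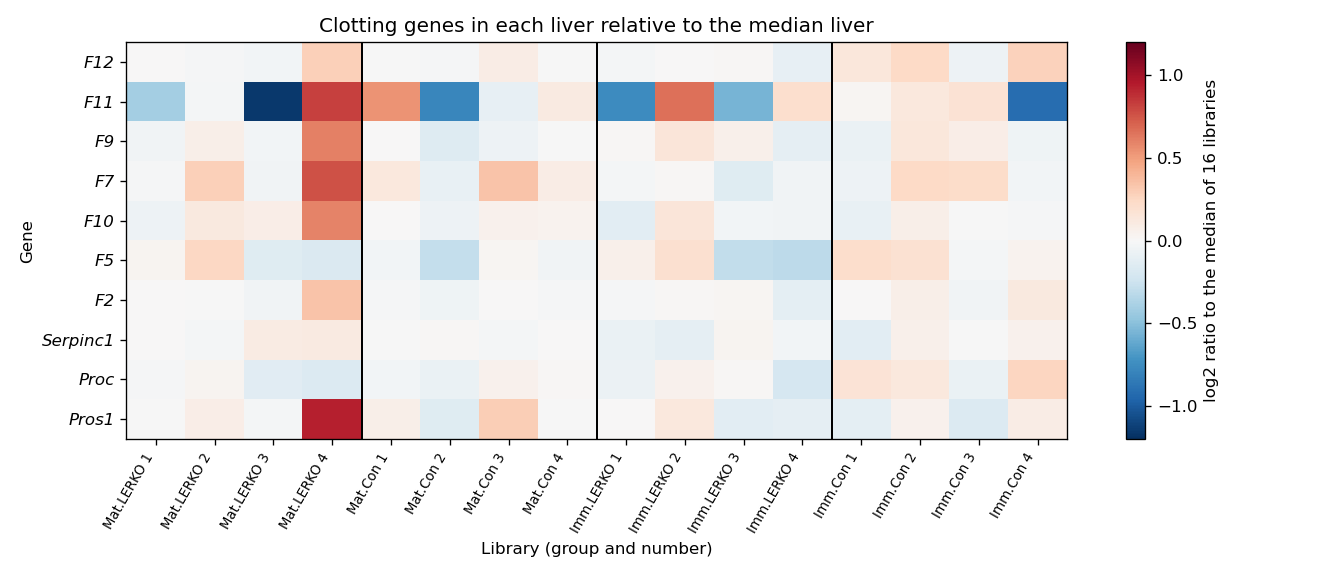
Log2 ratio of each gene in each liver to its median over the 16 livers (red above, blue below), with the groups in blocks of 4 libraries. The column of Mat.LERKO 4 is red for 8 genes and blue for F5 and Proc, and the F11 row changes colour within every group.

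At the other end, Imm.LERKO library 4, which held muscle transcripts, was the lowest of the 16 for 4 members: F12 at 505, F5 at 753, F2 at 2370 and Proc at 567 CPM. The share of all tested genes lowest in that library was not computed. Mat.Con libraries 1 and 2, which held more muscle transcripts, were the lowest for 0 members and 1 member. The part of muscle transcripts in the members' levels was not tested. Over the 16 livers, the pair of members with the most similar profiles was F9 and F10, with a root mean square difference of 0.426 between their z-scored log2 CPM. F5 and Proc were each other's nearest member at 0.817, and both lay far from Serpinc1 or F10. The 5 other genes nearest to the mean profile of the 10 members were Vtn (0.387), Serping1 (0.395), Itih1 (0.425), Tfr2 (0.440) and Cfi (0.449). All 5 were highest in Mat.LERKO library 4, which their choice by likeness to the members made likely. Without that library Vtn and Serping1 again came first and second, at 0.466 and 0.481.

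The rest of the clotting system was examined in lists around the members, with the edgeR fit; DESeq2 and limma-voom called 0 genes of these lists as well. Of the tested genes for fibrinogen and its crosslinker, 0 of 4 passed in either knockout comparison; the median log2 fold change was 0.83 in mature and -0.18 in immature mice, and the mature median was 0.18 without Mat.LERKO library 4. Fga had 7154 ± 5176 CPM in Mat.LERKO livers and 3887 ± 614 CPM in Mat.Con livers, and Fgb had 7471 ± 5755 CPM and 4314 ± 645 CPM (SD, n = 4 each). Of 4 contact system genes 0 passed, with medians of 0.28 in mature and -0.20 in immature mice and -0.01 in mature mice without that library. Kng1, the kininogen that carries factor XI, had 3114 ± 1340 CPM in Mat.LERKO livers and 2529 ± 160 CPM in Mat.Con livers (SD, n = 4 each), and Serping1, the inhibitor of factor XII, had 1076 ± 542 CPM and 828 ± 100 CPM. In both genes the SD of the Mat.LERKO group was the wider, and the test called neither.

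Of 5 other inhibitors 0 passed, and Serpind1 (heparin cofactor II) and Proz (protein Z) had mature log2 fold changes of 0.10 and 0.09. Of 7 fibrinolysis genes 0 passed, with Plg, the precursor of plasmin, at 0.24 in mature and -0.24 in immature mice and Hrg at 0.15 and -0.27. The mature median of this list was 0.15, and -0.05 without Mat.LERKO library 4, where Plg was 0.10 and Hrg 0.03. Of 8 genes of the vitamin K cycle, carboxylation and factor secretion 0 passed, with medians of 0.04 in mature and 0.05 in immature mice. Lman1 and Mcfd2, the receptor pair that exports factors V and VIII from the endoplasmic reticulum, had 0.07 and 0.34 in mature mice, and 0.17 and 0.31 without that library. Of 6 transcription factors 0 passed, with Hnf4a at 0.22 and -0.30 and Cebpa at -0.02 and -0.13 in mature and immature mice; without that library the mature values were 0.34 and 0.07. Unadjusted p-values below 0.05 in mature mice were seen for 3 fibrinogen genes, 2 other inhibitors, 1 vitamin K gene and 1 gene made mainly outside hepatocytes, and in immature mice for 1 vitamin K gene, beside 7.3% and 2.76% of all tested genes. With Mat.LERKO library 4 left out, 1 vitamin K gene and 0 fibrinogen genes, 0 other inhibitors and 0 genes made mainly outside hepatocytes had one in mature mice.

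Of the 5 genes made mainly outside hepatocytes (F3, F8, Vwf, Thbd and Procr), 0 passed, with medians of -0.41 in mature and 0.31 in immature mice and -0.20 in mature mice without Mat.LERKO library 4. Vwf had 7.51 ± 3.29 CPM in Mat.LERKO livers and 9.10 ± 1.33 CPM in Mat.Con livers, and F8 had 7.36 ± 2.06 CPM and 10.2 ± 1.96 CPM (SD, n = 4 each). The summed endothelial markers ran from 105 to 244 CPM in Mat.LERKO livers, against 224 to 306 CPM in Mat.Con livers, and from 140 to 287 CPM in Imm.LERKO livers, against 143 to 215 CPM in Imm.Con livers. Their part in the levels of these genes was not tested.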

How the data were processed

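Liver mRNA of 16 mice was sequenced as paired-end, stranded libraries, per the labels' protocols. STAR, limma, R 4.05 and the build mm10 are named, without a role, per the submitters' processing notes. The sources used here do not give the counting program, annotation or strand setting. The authors deposited 1 count per gene and library; 11 columns are whole counts. In 5 columns 2 predicted genes hold 10 deposited values that are not whole, so these columns are described as estimated counts and were rounded. Identifiers were matched to GENCODE vM21 (35465 of 35502), which gave the transcript lengths.

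Counts were filtered with filterByExpr (minimum count 10, minimum total 15), normalized with TMM (factors of 0.852 to 1.07) and modelled with edgeR 4.0.16 (glmQLFit, glmQLFTest) in R 4.3.3, with a coefficient per group, all 16 libraries in 1 fit and Benjamini-Hochberg adjustment over 13379 genes at a threshold of 0.05. Between mice the common coefficient of variation was 21.2%. Intervals of 95% use the test's degrees of freedom. The fit was tested on simulated data. Alternatives used DESeq2 1.42.0, limma-voom (limma 3.58.1), RLE factors, library size alone, no filter, 1 CPM in 4 libraries, the compared groups alone and left-out libraries.

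The members and lists were chosen with earlier results of these data known. Fold changes with tests are given for the 3 members with the smallest p in each comparison, for F12 in the knockout comparisons and for any member past the threshold; intervals alone of further members, F11 profiles and the promoters shown were added after the values were seen. Of other lists, the 2 genes with the highest mean level are named.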

Additional observations from a re-analysis of the deposited data

Results flagged for a closer look

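In 40 sets of 4 livers (10 genes in 4 groups), 5 held a liver separated from its nearest neighbour by more of the range of the set than Dixon's critical value for 4 samples allows. Chance gives about 1 in 20 such sets, but these sets are not independent, because the 10 genes were measured in the same livers. Mat.LERKO library 4 was set apart as the highest of its group for F12 (660 CPM), F9 (300.0 CPM), F2 (3243 CPM) and Pros1 (108 CPM). This is the liver with an acute phase sum of 79102 CPM; the part of the acute phase genes in these levels was not tested. The fifth was F12 in Mat.Con library 3, at 574 CPM against 535 to 541 CPM in the other 3 mature controls.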

How the results depend on the processing

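The number of members past the threshold was 0 of 10 in all 196 values computed over 8 tests and the alternatives; the fit of the compared groups alone was run for 4 of the tests, and the smallest adjusted p of a named member was 0.363. Esr1 passed under every alternative in both stages. With all 16 libraries, 0 members had an unadjusted p below 0.05 (edgeR) in Mat.LERKO over Mat.Con and 1 in Mat.LERKO over Imm.LERKO. These counts were 2 and 3 without Mat.LERKO library 1, 1 and 2 without library 3, and 0 and 0 without library 4. Imm.LERKO over Imm.Con had 2 without Imm.Con library 3, and mature over immature averaged over genotypes had 1 with library size alone. Shares of all genes in these settings are not given here. Of 565 alternative values of the 23 member fold changes given with tests, 5 changed sign, all in Mat.LERKO over Mat.Con and none past the threshold. F12 was -0.024 with library size alone, and -0.053 without the 3 libraries with most muscle transcripts and Mat.LERKO library 4. In that last setting F10 was -0.0026 and Pros1 -0.13. With each library left out in turn, Pros1 ran from -0.012 (without Mat.LERKO library 4) to 0.35. Fold changes outside the 23 also changed sign, such as immature F11 at -0.22 without Imm.LERKO library 2 and mature Proc at 0.0047 without Mat.LERKO library 4. Library size alone moved the median of all genes to -0.13 for the difference of knockout effects, and the members' median was 0.07 there. No paired analysis was possible because the replicate numbers follow the order of deposition and the labels pair no mice. Over all genes, DESeq2 called 69 for any difference, 27 and 13 for the knockout in mature and immature mice, 3 on average over the stages, 74 and 6 for the stages in Con and LERKO mice, 29 on average and 22 for the difference of effects, against 0 or 1 by edgeR and limma-voom. The 95% interval of F11 reached nearly 2-fold in both directions for the knockout in each stage.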

Other observations

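F11 alone was set against all tested genes over the 16 livers, a search added after its spread had been seen. The nearest profiles, by root mean square difference of z-scored log2 CPM, were those of Pnpla7 (0.382), Hps4 (0.403), Cmah (0.455), Ddo (0.494) and Masp1 (0.498). Pnpla7, a phospholipase gene, ran from 53.2 CPM in Mat.LERKO library 3, also the lowest for F11, to 118 CPM in Mat.LERKO library 4, also the highest. Without that library, Hps4 (0.361), Pnpla7 (0.419), Ddo (0.446) and Cmah (0.492) were again nearest, followed by Sash1 (0.4996).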
